A study of Rattus norvegicus with 18 samples.

Results

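Type I interferon-stimulated genes (ISGs) were followed in the retina and in the retinal pigment epithelium with the choroid beneath it (RPE/choroid) of Fischer 344 rats. The list held 39 genes, chosen by name as known targets of type I interferon. All 39 were found among the 32552 genes of the RPE/choroid table. Of the 32285 genes of the retina table, 37 were on the list, and Samd9 and Xaf1 were not found. Bulk RNA-seq covered 3 groups per tissue with 3 libraries each, 18 libraries in all. Young rats were 4 months old and untreated, and aged rats were 24 months old and received water only. The third group was aged rats given 8-aminoguanine (8-AG), an inhibitor of purine nucleoside phosphorylase, dissolved in the drinking water from 22 to 24 months of age, a period of 8 weeks at 5 mg/kg/day. All rats carry the wild-type genotype in the labels and were female in the study's methods. The labels do not say that the libraries of a group came from separate rats, so the p-values measure the spread between libraries only. In RPE/choroid, the labels of young libraries 1 and 2 share a number with the letters L and R, as do those of aged libraries 1 and 2. The 3 libraries of 8-AG-treated retina are labelled total RNA and the other 15 polyA RNA, although the protocol describes poly-A capture for all, so a difference in library type and the treatment cannot be told apart in retina.

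Type I interferons bind a shared receptor made of Ifnar1 and Ifnar2, which signals through the kinases Jak1 and Tyk2. These phosphorylate Stat2, which works with Irf9 at the interferon-stimulated response element (ISRE) in the promoters of ISGs. The proteins made from ISGs block viral entry, cut or sequester viral RNA, sense foreign nucleic acid, and tune the pathway itself. In the eye, microglia, vessels and Mueller glia are among the cells known to express them.

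The promoters of the members are shown first, because the ISRE is the sequence that defines this pathway. Promoter windows from RefSeq on GRCr8 were found for 31 of the 39 members, and the 250 bases before the start were searched on both strands. The ISRE core, searched as GAAA, any 2 bases and GAAA, was present in 18 of the 31 windows (58.1%) and in 992 of 27457 genes with a window (3.61%). The GAS core TTCNNNGAA, an element of the interferon gamma response, was present in 6 of the 31 (19.4%) and in 8.19% of all genes. Of 25 ISRE matches, 3 overlapped a GAS match. The ISRE core was found more than once in 6 members. The stretches below belong to 7 members whose values are described further on. They are written 5′ to 3′ on the strand of the gene, with the bases of a match in capitals. Where the capitals begin with TTTC, the match lies on the opposite strand.
Oas1a: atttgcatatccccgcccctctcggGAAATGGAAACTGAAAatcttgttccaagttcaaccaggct
Rsad2: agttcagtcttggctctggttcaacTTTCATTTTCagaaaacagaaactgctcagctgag
Ifit3: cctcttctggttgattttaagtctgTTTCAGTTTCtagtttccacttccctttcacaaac
Bst2: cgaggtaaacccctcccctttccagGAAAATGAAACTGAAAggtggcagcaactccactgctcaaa
Oasl2: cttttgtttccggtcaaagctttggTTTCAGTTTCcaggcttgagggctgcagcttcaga
Irf7: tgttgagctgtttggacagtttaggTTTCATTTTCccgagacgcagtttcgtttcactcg
Trim21: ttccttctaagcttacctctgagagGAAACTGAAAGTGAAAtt
The Oas1a stretch lies at chr12:41330400-41330465 on the plus strand, with the capitals from 41 to 26 bases before the start. The Rsad2 stretch lies at chr6:48788233-48788292 on the minus strand, with the capitals from 147 to 138 bases before the start. The Ifit3 stretch lies at chr1:241527257-241527316 on the plus strand, from 44 to 35 bases before the start. The Bst2 stretch lies at chr16:18255058-18255123 on the minus strand, from 131 to 116 bases before the start. The Oasl2 stretch lies at chr12:47383302-47383361 on the minus strand, from 151 to 142 bases before the start. The Irf7 stretch lies at chr1:205800058-205800117 on the minus strand, from 69 to 60 bases before the start. The Trim21 stretch lies at chr1:166399372-166399414 on the minus strand, from 18 to 3 bases before the start. In Oas1a, Bst2 and Trim21 a pair of matches overlap, so that the GAAA unit is written 3 times, 2 bases apart. No match was found in the windows of Mx1, Cmpk2, Oasl and Stat2, which says only that these letters are not in those windows. Rtp4, Mx2, Usp18, Ddx58, Isg15, Ifit2, Zbp1 and Dhx58 had no window in the table.

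The retina libraries held 12283425 to 15644317 counts and the RPE/choroid libraries 28573828 to 48203050. Levels are in CPM, counts per 1000000 of a library's TMM-corrected total. The tissues were counted and normalized separately, so levels were not tested between them. Genes that mark the expected tissue were present: 8 rod genes summed to 30292 to 54222 CPM across the retina libraries, and 6 RPE genes summed to 1381 to 5336 CPM across the RPE/choroid libraries. Rod transcripts in RPE/choroid varied from 520 to 48932 CPM, the highest being 8-AG library 1. In the retina, 4 lens genes summed to 103 to 4802 CPM in the young libraries, 1.48 to 2.49 CPM in the aged libraries, and 1300, 3.42 and 3.14 CPM in the 8-AG libraries. The part of lens tissue in the results below was not tested. Mx1 with Mx2, the Oas genes, and Ifit2 with Ifit3 belong to families of similar sequence, and the division of reads within a family is uncertain.

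The first question was how ISGs changed with age in the retina. Every one of the 37 members tested was higher in aged than in young retina. By the rule for differentially expressed genes (DEGs), more than 1.5-fold apart at P under 0.05 before adjustment, 33 were upregulated, against 6.45% of all 14588 genes tested. None was downregulated, against 2.39% of all genes. At a Benjamini-Hochberg adjusted p under 0.05 in edgeR's quasi-likelihood test, 33 were higher, against 7.29% of all genes, and none lower, against 7.26%. The median log2 fold change of the members was 1.61, with a range of 0.17 to 4.63, and that of all genes was 0.00. In 6 members, Bst2, Ifi44l, Mx1, Oas1a, Rtp4 and Zbp1, only the aged group had all 3 libraries past the low-count filter (0.72 CPM). No young library passed it for Oas1a and Zbp1, 1 did for Mx1 and Rtp4, and 2 did for Bst2 and Ifi44l. These 6 thus entered the test through the group where they were high. Of the 31 whose young libraries passed as well, 27 were upregulated DEGs and 28 were higher at an adjusted p under 0.05, with a median of 1.45. In 35 members the lowest aged library lay above the highest young library, as it did in 18% of all genes. Summed over the 37 genes, the level was 347, 343 and 322 CPM in young retina and 650, 716 and 868 CPM in aged retina, a ratio of 2.21 (exact permutation test, two-sided p = 0.1, the smallest that 3 libraries against 3 allow). In bulk tissue, fewer cells of a type and less RNA per cell cannot be told apart.

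**Figure D1:**
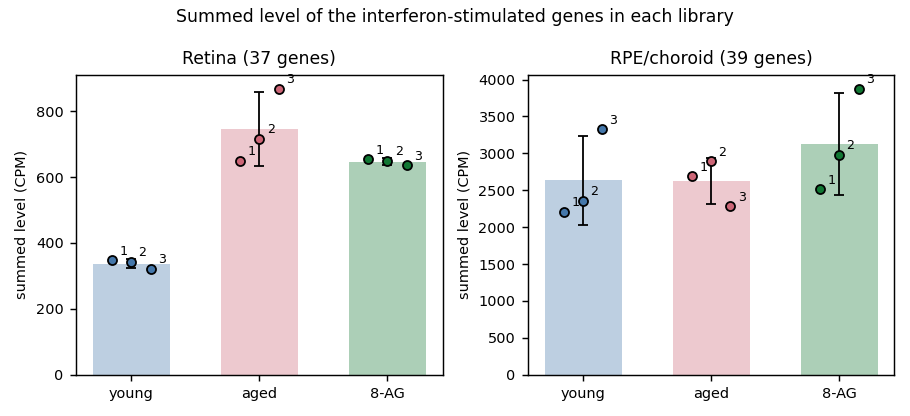
Summed level in CPM (y axis, from 0) of the 37 retina and 39 RPE/choroid members, with each point a library, the bar the mean of 3 and the error bar the SD. In retina the aged libraries, at 650 to 868 CPM, and the 8-AG libraries, at 636 to 655 CPM, sit above the young libraries, at 322 to 347 CPM. In RPE/choroid the 3 groups overlap between 2210 and 3874 CPM.

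The antiviral effectors had a median change of 2.55 on the log2 scale, and 9 of the 11 tested were upregulated DEGs, with 8 past the adjusted threshold. Among the 9 were Mx1, Oas1a and Bst2, which entered the test through the aged group. The median is the value of Bst2, and a median without these members was not computed. The summed level of the effectors was 121, 111 and 116 CPM in young and 199, 222 and 307 CPM in aged libraries. The ratio of these means was smaller than that of the sensors, at 60.8, 61.1 and 53.4 CPM in young and 131, 128 and 155 CPM in aged libraries. The effector sums hold Cmpk2, which changed least, at 95.6, 83.8 and 95.7 CPM in young and 89.8, 111 and 109 CPM in aged libraries. The effector ratio thus rests largely on this gene, and the ratio without it was not computed. Differences between the role groups were not tested. Mx1, a dynamin-like GTPase that traps viral nucleocapsids, was at 0.308, 0.752 and 0.473 CPM in young libraries and at 10.1, 10.1 and 18.4 CPM in aged libraries. Its log2 fold change was 4.63 ± 0.38 (SE, adjusted p = 2.5e-04), and the young level rested on 4, 10 and 7 counts. Oas1a, which makes the 2-5A messenger that activates RNase L, was at 0.385, 0.677 and 0.203 CPM in young and 4.44, 5.48 and 11.4 CPM in aged retina. Young and aged values did not overlap, and the log2 fold change was 4.07 ± 0.53 (adjusted p = 0.0025). Rsad2 encodes viperin, which makes a chain-terminating nucleotide. It was at 1.93, 1.81 and 2.03 CPM in young and 20.7, 21.2 and 34.5 CPM in aged retina (log2 fold change 3.72 ± 0.25, adjusted p = 1.3e-04). Ifit3, a partner of the RNA-binding Ifit proteins, went from 1.31, 1.28 and 1.22 CPM to 7.48, 8.79 and 15.5 CPM (log2 fold change 3.06 ± 0.31, adjusted p = 4.9e-04). Mx2, the second Mx GTPase, went from 5.85, 7 and 4.19 CPM to 31, 27.9 and 64.6 CPM (2.86 ± 0.47, adjusted p = 0.022). In Ifit3 and Mx2 every aged library was above the young libraries, and aged library 3 stood highest. Bst2, or tetherin, holds budding virions at the cell surface. It was at 1.46, 1.28 and 0.473 CPM in young and 4.13, 7.9 and 6.56 CPM in aged retina (log2 fold change 2.55 ± 0.39, adjusted p = 0.0033). Oasl2, a relative of Oas1a, rose by 2.43 ± 0.22 on the log2 scale (adjusted p = 2.0e-04). Ifit2 rose by 1.59 ± 0.25 (adjusted p = 0.0039).

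Sensors, and the genes of the ubiquitin-like protein Isg15, also rose. The 6 sensors of RNA and DNA were each upregulated DEGs at an adjusted p under 0.05, Zbp1 having entered the test through the aged libraries alone. They were Zbp1, which binds Z-form nucleic acid (2.35 ± 0.46, on 2 to 3 counts per young library), Ddx58, which encodes the RNA sensor RIG-I (2.19 ± 0.26), Dhx58 (1.86 ± 0.22), Zc3hav1 (1.43 ± 0.10), Ifih1, which encodes MDA5 (0.93 ± 0.17), and the kinase Eif2ak2 or PKR (0.91 ± 0.12). Among the 5 genes of the Isg15 and ubiquitin group, all passed the adjusted threshold and 4 were DEGs. Usp18, which removes Isg15 from proteins and restrains the receptor, was at 1.16, 1.88 and 1.15 CPM in young and 6.32, 7.14 and 14.7 CPM in aged retina. Its log2 fold change was 2.75 ± 0.40 (adjusted p = 0.0045), above those of Trim21 (1.61 ± 0.13), Isg15 itself (1.45 ± 0.31), Trim25 (1.24 ± 0.13) and Herc6 (0.55 ± 0.11). The difference between these members was not tested.

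Of the 5 signalling factors, all passed the adjusted threshold and 4 were DEGs. Irf7, the factor that amplifies interferon production, was at 2.31, 1.88 and 1.89 CPM in young and 8.73, 9.81 and 16.4 CPM in aged retina (log2 fold change 2.52 ± 0.27, adjusted p = 5.5e-04). Irf9 was at 9.63, 10.5 and 9.86 CPM in young and 22.7, 27.8 and 27.8 CPM in aged retina (1.39 ± 0.11, adjusted p = 9.9e-05). Stat2, its partner, was at 50.4, 51.1 and 48.7 CPM in young and 62.3, 74 and 72.7 CPM in aged retina. The groups did not overlap, but the log2 fold change of 0.48 ± 0.08 was below the DEG size (adjusted p = 0.0031). Nmi rose by 1.14 ± 0.30 and Ifi35, which binds it, rose to 2 times its young level (adjusted p = 0.023). The 3 ADP-ribosyltransferases and Dtx3l were upregulated, from Parp12 at 0.90 ± 0.21 and Parp14 at 1.51 ± 0.13 to Parp9 at 1.71 ± 0.12 and the ubiquitin ligase Dtx3l, which pairs with Parp9, at 1.77 ± 0.15. Of the 6 others, all were DEGs and 5 passed the adjusted threshold. Rtp4, a chaperone of membrane receptors, was at 0.847, 0.677 and 0.675 CPM in young and 2.42, 4.33 and 6.77 CPM in aged retina (2.61 ± 0.40, adjusted p = 0.0027).

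The smallest changes also fell on known ISGs. Cmpk2, a mitochondrial nucleotide kinase, was at 95.6, 83.8 and 95.7 CPM in young and 89.8, 111 and 109 CPM in aged retina (log2 fold change 0.17 ± 0.09, adjusted p = 0.24). Oasl was at 4.16, 4.14 and 3.65 CPM in young and 4.05, 3.76 and 6.63 CPM in aged retina (0.28 ± 0.24, adjusted p = 0.49). These were the 2 members whose groups overlapped. Helz2 (0.63 ± 0.21, adjusted p = 0.074) and Ifi44l (1.73 ± 0.54, adjusted p = 0.069) were DEGs without passing the adjusted threshold. Neighbours on the chromosome did not always move alike. In the RefSeq gene order 6 pairs of members were adjacent. Rsad2 and Cmpk2 had log2 fold changes of 3.72 and 0.17, and Oasl2 and Oasl 2.43 and 0.28. Ifit3 and Ifit2 had 3.06 and 1.59, while Ifi44 and Ifi44l had 1.72 and 1.73 and Parp9 and Dtx3l had 1.71 and 1.77. By promoter, the 16 tested members with an ISRE core before their start had a median log2 fold change of 1.73 (0.90 to 4.07), and the 13 with a window but no match had 1.07 (0.17 to 4.63). Mx1 was among those without a match. It entered the test through the aged group, as did Bst2, Ifi44l and Oas1a among those with a match. Medians without these members were not computed.

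**Figure D2:**
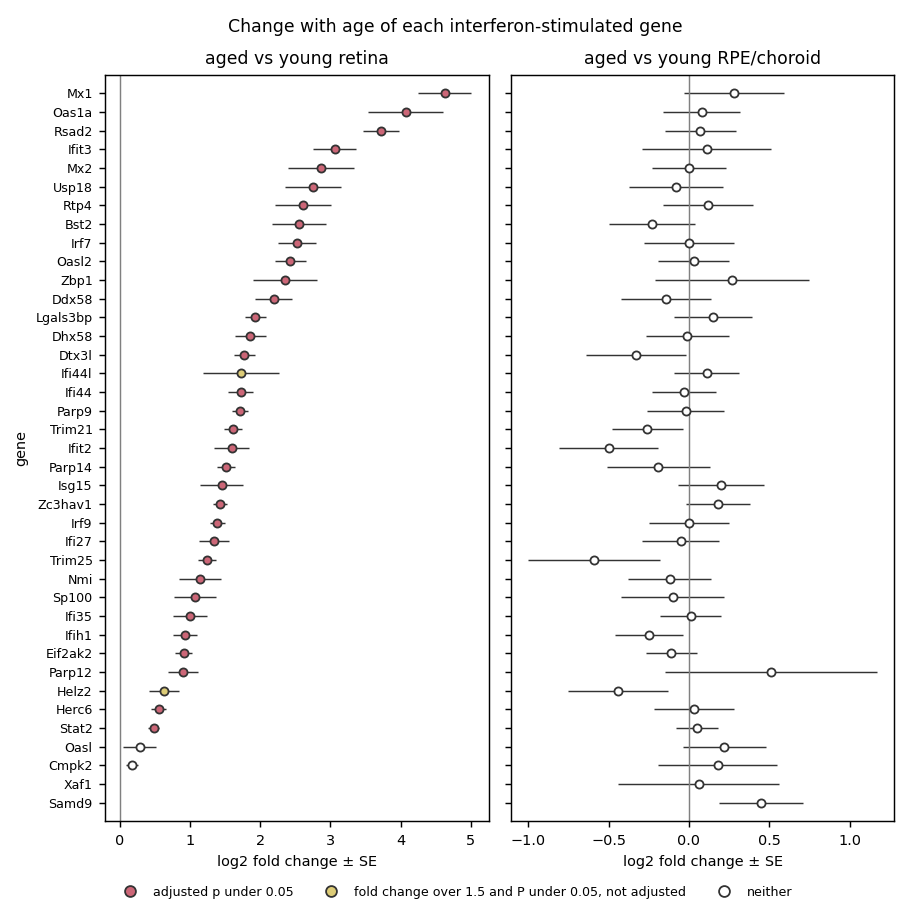
Log2 fold change ± SE (x axis) of each member between aged and young rats, in retina (left) and RPE/choroid (right), in the order of the retina values. Red points have an adjusted p under 0.05 and yellow points pass the DEG rule only. All 37 retina points lie right of 0, from 0.17 for Cmpk2 to 4.63 for Mx1, and the 39 RPE/choroid points lie from -0.59 to 0.51 on a narrower axis with none coloured.

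Of the upstream genes reported here, some moved with age and others did not. Part of the receptor and signalling list is not reported here, so no count over that list is given. Among receptor and signalling genes outside the list, the feedback inhibitor Socs3 rose with age in retina by 3.75 ± 0.43 on the log2 scale (adjusted p = 7.4e-04) and the phosphatase gene Ptpn6 by 1.60 ± 0.19 (adjusted p = 6.7e-04). The receptor genes did not pass: Ifnar1 differed by -0.17 ± 0.06 on the log2 scale (adjusted p = 0.095) and Ifnar2 by 0.20 ± 0.16 (adjusted p = 0.45). The kinases Jak1 and Tyk2 were at 0.01 ± 0.06 and -0.02 ± 0.08. Of 9 type I ligand symbols looked up in the authors' TMM table, 7 were listed. Ifnb1, Ifna2, Ifna5 and Ifna16l1 were listed at 0 in all 9 retina libraries, and the highest value of any ligand was 0.204 CPM, for Ifne. Of 16 nucleic acid sensing genes tested, 5 were upregulated DEGs, against 6.45% of all genes, and the median was 0.26 on the log2 scale. Among the 5 were the endosomal receptor genes Tlr7 (2.40 ± 0.24, adjusted p = 3.1e-04) and Tlr3 (1.38 ± 0.20, adjusted p = 0.0018). The adaptor gene Mavs was at -0.21 ± 0.09, the kinase gene Tbk1 at 0.03 ± 0.07 and the factor gene Irf3 at -0.17 ± 0.13, none past the adjusted threshold. Of 40 genes tested on a list of other ISGs, 30 were upregulated, against 6.45% of all genes, and 1, Tdrd7, was downregulated, against 2.39%, and the median change was 1.35 on the log2 scale. Cxcl10, a chemokine for T cells, was at 0.308, 0.0752 and 0.203 CPM in young and 2.18, 3.89 and 7.11 CPM in aged retina (4.44 ± 0.60, adjusted p = 0.0022). Its young values lay under the 0.72 CPM filter, so it entered the test only through the aged libraries, where it was high. How the rest of that list passed the filter was not counted. The lists were written with earlier results of these data known.

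Cell type markers moved with the members in retina. The summed level of 10 microglia and macrophage genes was 41.1, 40.8 and 39.2 CPM in young, 146, 203 and 119 CPM in aged and 135, 139 and 133 CPM in 8-AG retina. All 9 of these genes that were tested rose with age, by a median of 2.08 on the log2 scale, and none of the 10 was at 0 in all libraries. Rod genes fell, with 7 of 8 lower at an adjusted p under 0.05. Of 3 gliosis genes, Gfap rose by 3.52 ± 0.40 on the log2 scale (adjusted p = 0.0087) and Lcn2 by 1.67 ± 0.45 (adjusted p = 0.035). Gfap was at 33.3, 21.1 and 25 CPM in young, 247, 444 and 219 CPM in aged and 289, 285 and 208 CPM in 8-AG retina. The 4 Mueller glia genes changed less: Glul fell by 0.42 ± 0.08 and Rlbp1 by 0.37 ± 0.10, Aqp4 rose by 0.33 ± 0.08, and Slc1a3, at 0.16 ± 0.07, did not pass. The part of any of these in the change of the members was not tested. The 6 T and B cell genes found summed to 0.127 to 0.858 CPM in the young, aged and 8-AG retina libraries, and Ms4a1, which defines B cells, was at 0. Within the aged group, library 3 had the highest summed level of the members, 868 CPM, and the lowest microglia sum, 119 CPM. That library was the highest of the 3 for 26 of 37 members, as it was for 27.7% of all genes. Relative to the mean of the other 2 aged libraries, its level was 2.3 times for Oas1a, 2.19 times for Mx2 and Usp18, and 2.01 times for Rtp4, but 0.999 times for Parp9, 0.997 times for Ifih1 and 0.847 times for Nmi. Without it, the median log2 fold change with age was 1.45 and 33 members were DEGs.

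**Figure D3:**
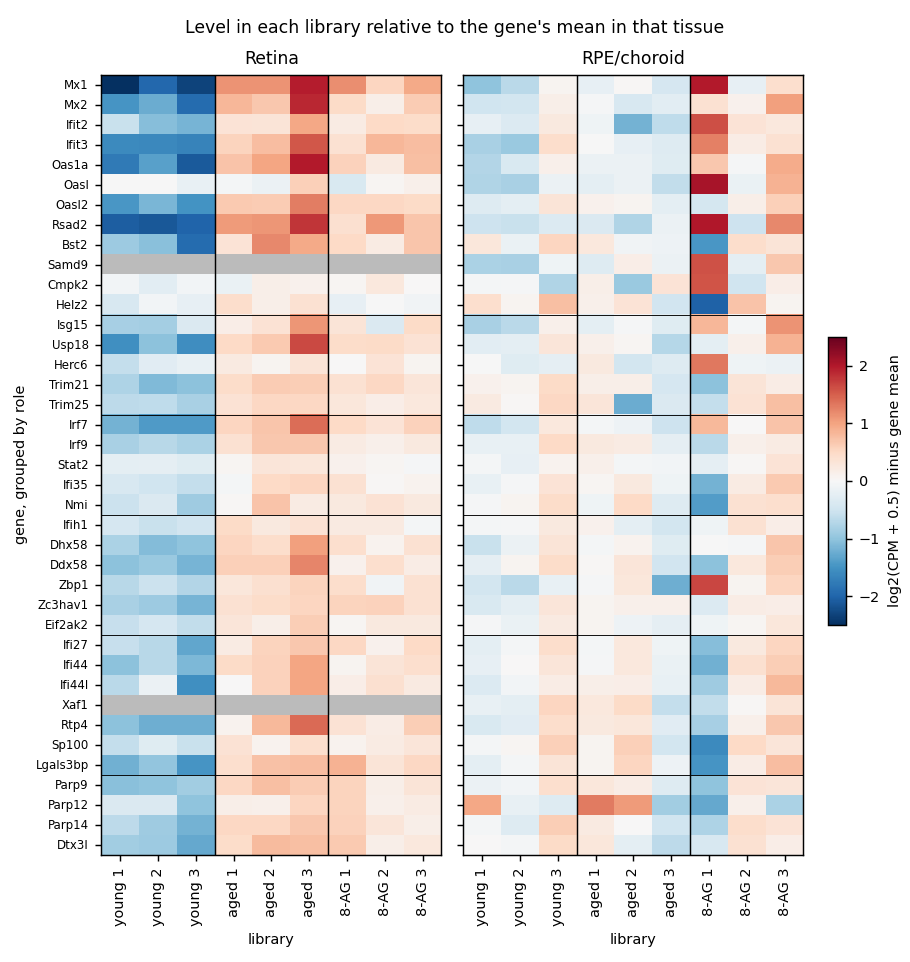
Heat map of log2(CPM + 0.5) minus the mean of the gene in that tissue, with 1 row per member grouped by role and 1 column per library. The colour scale is cut at ±2.5. Young retina is below the mean in nearly every row and aged retina library 3 holds the strongest colours among the effectors, while in RPE/choroid young library 3 and 8-AG library 1 differ most from the other libraries of their groups.

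The second question was whether 8-AG changed these genes in aged retina. The 8-AG group was lower than the aged group in 34 of 37 members and higher in 3. The median change was -0.31 on the log2 scale, against 0.00 for all 14631 genes tested. By the DEG rule 3 were downregulated, against 0.431% of all genes, and none was at an adjusted p under 0.05 with edgeR or DESeq2, where edgeR had 0.0205% of all genes higher and 0% lower. DESeq2 gave 6 members lower by the DEG rule, against 0.263% of all genes in that fit. At an unadjusted P under 0.05 in edgeR, 7 were lower, against 1.63% of all genes. The 3 DEGs were Oas1a, Ddx58 and Rsad2. Oas1a was at 4.01, 3.01 and 4.61 CPM in 8-AG retina against 4.44, 5.48 and 11.4 CPM in aged retina, with overlap. The change was -0.87 ± 0.36 on the log2 scale (adjusted p = 1). Ddx58 was at 3.78, 4.81 and 4.01 CPM against 5.54, 5.48 and 8.77 CPM, without overlap (-0.66 ± 0.23, adjusted p = 1). Rsad2 was at 12.9, 21 and 15.9 CPM against 20.7, 21.2 and 34.5 CPM, where 8-AG library 2 reached the lower aged values (-0.62 ± 0.25, adjusted p = 1). Irf9 had the smallest P of the 37 but a smaller change. It was at 20, 18.9 and 20.6 CPM in 8-AG against 22.7, 27.8 and 27.8 CPM in aged retina (-0.40 ± 0.11, adjusted p = 1), and the groups did not overlap. In all, 10 members had every 8-AG library below every aged library, against 3.96% of all genes: Mx2, Oasl2, Irf9, Usp18, Ifih1, Dhx58, Ddx58, Ifi44, Trim25 and Helz2. Mx2, at 24.1, 19.1 and 27 CPM against 31, 27.9 and 64.6 CPM, differed most of these (-0.81 ± 0.37, adjusted p = 1). Ifi44, a cytosolic protein of unsettled function, was at 11.3, 13.4 and 14.4 CPM against 15, 16.1 and 21.8 CPM (-0.43 ± 0.16, adjusted p = 1).

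Leaving out single libraries changed these counts. Without aged library 3 no member was a DEG and the median log2 fold change was -0.15. Without aged library 1 or 2 there were 8 and 7 DEGs lower, and without 8-AG library 1, 2 or 3 there were 1, 2 and 1. The shares of all genes in these fits are not given here, so the counts show only how the calls depend on single libraries. The summed level was 655, 650 and 636 CPM in 8-AG retina, 0.868 times the aged mean (exact permutation test, two-sided p = 0.2). By group, effectors had a median of -0.43 on the log2 scale and the other groups medians between -0.20 and -0.27. The 3 members that were higher, Cmpk2, Zc3hav1 and Parp12, differed by 0.07 ± 0.10, 0.04 ± 0.08 and 0.02 ± 0.17. Among 41 other ISGs 1 was upregulated, against 0.526% of all genes, and 1 downregulated, against the 0.431% above.

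Treated retina remained above young retina. Of 36 members tested, all were higher in 8-AG than in young retina and 31 were upregulated DEGs, against 6.5% of all genes. Of these 36, 5 (Bst2, Ifi44l, Mx1, Oas1a and Rtp4) had all 3 libraries past the low-count filter in the 8-AG group only. Mx1 and Oas1a had no young library past it, so both entered the test only where they were high. The other 31 had a median log2 fold change of 1.29, and 26 of them were DEGs. Over all 36, 31 were higher at an adjusted p under 0.05, against 7.78% of all genes, and the median log2 fold change was 1.37. In 34 members the groups did not overlap, against 17.7% of all genes. Mx1, at 10.3, 6.52 and 8.88 CPM in 8-AG retina, was above young retina by 4.04 ± 0.31 on the log2 scale (adjusted p = 6.5e-05), and Rsad2 by 3.10 ± 0.21 (adjusted p = 3.8e-05). Oas1a was 9.16-fold above young retina (adjusted p = 7.2e-04). Zc3hav1, which encodes the antiviral protein ZAP, was at 70.1, 70.9 and 61.9 CPM in 8-AG and 26.8, 24.9 and 20.9 CPM in young retina (1.48 ± 0.11, adjusted p = 5.0e-05). Oasl (0.01 ± 0.21, adjusted p = 0.98) and Helz2 (0.14 ± 0.22, adjusted p = 0.73) had the smallest differences, and their groups overlapped. Helz2 was the member whose treated level, at 2.62, 3.1 and 2.87 CPM, lay closest to young retina after a DEG call with age. The aged and young comparisons with 8-AG share the treated libraries, and the summed level of 8-AG retina was 1.92 times that of young retina (exact permutation test, two-sided p = 0.1).

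In RPE/choroid the third question was whether ISGs changed with age. Of 39 members tested, 21 were higher and 18 lower in aged than in young RPE/choroid, and the median log2 fold change was 0.00. No member was a DEG, against 0.717% of all 16047 genes higher and 0.636% lower. With the libraries that share a label number summed, 1 member was lower, against 0.496% of all genes in that fit. In edgeR none had an unadjusted P under 0.05, against 0.929% of all genes higher and 1.2% lower. No member, and 0% of all genes, passed an adjusted p of 0.05, and DESeq2 called no member at that threshold. In no member were the groups free of overlap, against 2.97% of all genes higher and 4.13% lower. Mx1 was at 13.3, 17 and 28.6 CPM in young and 23.7, 28 and 20.4 CPM in aged RPE/choroid (0.28 ± 0.31, adjusted p = 1). Oas1a was at 17.8, 22.6 and 32.5 CPM in young and 26.8, 26.8 and 24.1 CPM in aged (0.08 ± 0.24, adjusted p = 1), and Rsad2 at 10.5, 10.2 and 12 CPM in young and 11.9, 8.86 and 13.8 CPM in aged (0.07 ± 0.22, adjusted p = 1). The groups overlapped in all 3. The largest changes were no clearer. Trim25 was at 22.3, 19.2 and 27.4 CPM in young and 23.6, 7.75 and 14.6 CPM in aged RPE/choroid (-0.59 ± 0.41, adjusted p = 1). Parp12 was at 21.7, 9.54 and 8.59 CPM in young and 27.6, 23.3 and 5.74 CPM in aged (0.51 ± 0.66, adjusted p = 1). Ifit2 was at 59.3, 54.2 and 81.1 CPM in young and 64.1, 30.2 and 44.1 CPM in aged (-0.50 ± 0.31, adjusted p = 1). The groups overlapped in each of these too. Samd9, with the smallest P, was at 13.8, 13.6 and 22.4 CPM in young and 19.3, 27.2 and 21.9 CPM in aged (0.45 ± 0.26, adjusted p = 1), and Helz2 at 12, 9.3 and 15.2 CPM in young and 9.61, 11.2 and 6.21 CPM in aged (-0.44 ± 0.31, adjusted p = 1). Young library 3 was the highest of its group for 36 of 39 members, as it was for 38.9% of all genes. Without it, 3 members were upregulated DEGs, against 0.801% of all genes, and without aged library 1, 2 were downregulated DEGs, against 1.06%. The common dispersion over all genes was 0.195 here and 0.0147 in the same comparison of retina, while the SEs of Mx1, Oas1a and Rsad2 were 0.31, 0.24 and 0.22 here and 0.38, 0.53 and 0.25 there.

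The change with age differed between the tissues for several members. In a fit of 12 libraries with an interaction of tissue and age, the retina change exceeded the RPE/choroid change by the DEG rule for 32 of 37 members, against 5.43% of 16792 genes. At an adjusted p under 0.05, 5 members passed, against 0.155% of all genes. That number was 1 with limma voom and quality weights, 3 with at least 10 counts in every library and 0 with the replicate number as a block. No fit of the interaction summed the RPE/choroid libraries that share a label number. The differences of log2 fold changes were 4.37 ± 0.55 for Mx1 (adjusted p = 0.036), 4.00 ± 0.61 for Oas1a (adjusted p = 0.047), 3.67 ± 0.33 for Rsad2 (adjusted p = 0.0086), 2.41 ± 0.34 for Oasl2 (adjusted p = 0.042) and 1.88 ± 0.27 for Trim21 (adjusted p = 0.042). Of these, 4 are antiviral effectors, and Trim21 is a cytosolic antibody receptor and ubiquitin ligase. Cmpk2 (0.00 ± 0.41) and Oasl (0.07 ± 0.38), which changed least in retina, had the smallest differences. The number at an adjusted p under 0.05 was 0 without young retina library 1 or 3 and 1 without young retina library 2, aged retina library 1 or 2, young RPE/choroid library 2 or aged RPE/choroid library 1 or 3. It was 2 without young RPE/choroid library 1 or 3, and 5 without aged retina library 3. It was 7 without aged RPE/choroid library 2, while the count by the DEG rule stayed between 30 and 33.

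The last question was the effect of 8-AG in RPE/choroid. Of 39 members, 28 were higher and 11 lower in 8-AG-treated than in aged RPE/choroid, and the median change was 0.19 on the log2 scale, against 0.01 for all genes. By the DEG rule 8 were upregulated, against 1.24% of all 16257 genes, and none was downregulated, against 0.418%. Aged libraries 1 and 2 share a label number, and with these 2 summed into 1 library only 1 member was an upregulated DEG, against 0.374% of all genes in that fit. The same 8 had an unadjusted P under 0.05 in edgeR, against 1.26% of all genes. No member, and 0% of all genes, passed an adjusted p of 0.05 in edgeR, and no member did in DESeq2. The 8 were Rsad2, Oasl, Ifit2, Isg15, Ifit3, Mx2, Oas1a and Irf7, of which 6 are antiviral effectors. Rsad2 was at 63.3, 10.6 and 35.9 CPM in 8-AG against 11.9, 8.86 and 13.8 CPM in aged RPE/choroid (log2 fold change 1.70 ± 0.66, adjusted p = 1). Oasl was at 90.2, 18.9 and 39.5 CPM against 17.9, 19.2 and 13.7 CPM (1.59 ± 0.60, adjusted p = 1). In both, 8-AG library 2 lay within the aged range. Ifit2 was at 211, 87.1 and 82.4 CPM against 64.1, 30.2 and 44.1 CPM without overlap, a fold change of 2.82 (adjusted p = 1). Mx2 was at 74.5, 61.5 and 117 CPM against 55.8, 42.9 and 47.3 CPM (0.81 ± 0.28, adjusted p = 1). Oas1a was at 47.8, 29.2 and 57.1 CPM against 26.8, 26.8 and 24.1 CPM (0.81 ± 0.28, adjusted p = 1). The groups did not overlap for 5 members, against 2.1% of all genes: Ifit2, Ifit3, Irf7, Mx2 and Oas1a. Parp12 had the largest negative value, at 4.22, 11.9 and 6.09 CPM in 8-AG and 27.6, 23.3 and 5.74 CPM in aged RPE/choroid (-1.33 ± 0.69, adjusted p = 1). The median change was 0.86 on the log2 scale for effectors and 0.02 for the 7 others.

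**Figure D4:**
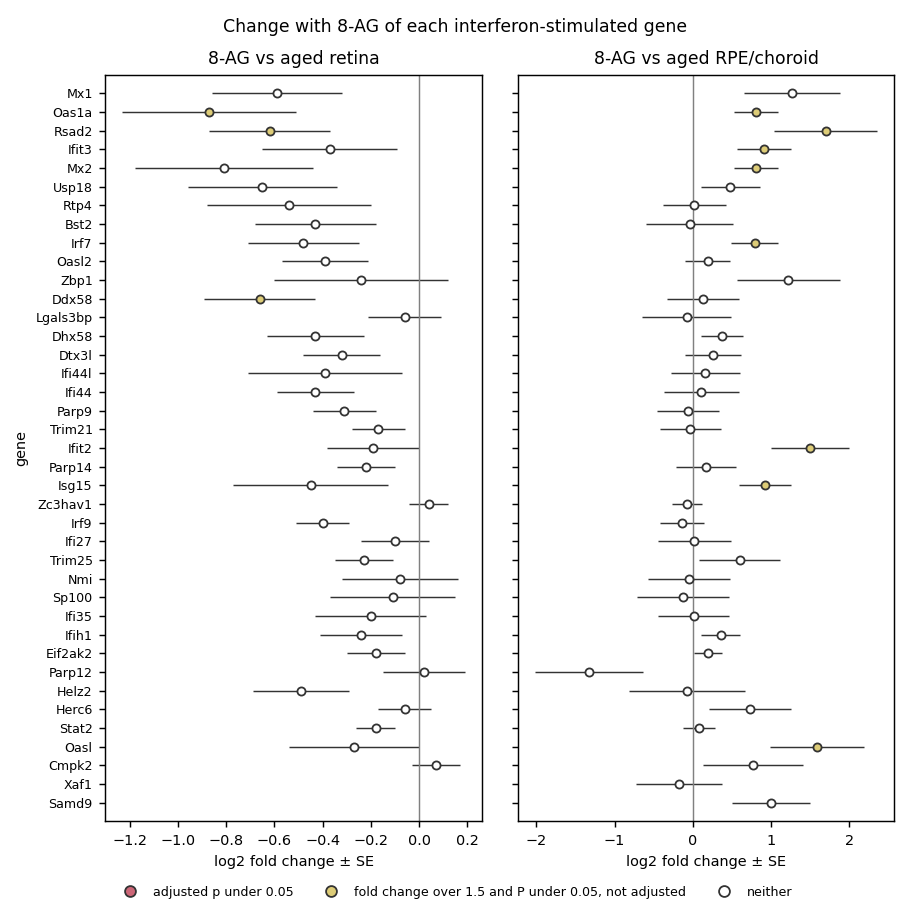
Log2 fold change ± SE (x axis, with a different scale in each panel) of each member between 8-AG-treated and aged rats, in retina (left) and RPE/choroid (right). Yellow points pass the DEG rule and no point has an adjusted p under 0.05. In retina 34 of 37 points lie left of 0 and 3 are yellow, and in RPE/choroid 28 of 39 lie right of 0 and 8 are yellow.

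The libraries behind these values were uneven. 8-AG library 1 held 48932 CPM of rod transcripts against 747 and 723 CPM in the other 8-AG libraries, and 693 CPM of melanocyte transcripts against 5740 to 16254 CPM in every other RPE/choroid library. Its microglia and macrophage sum was 440 CPM against 1794 and 1711 CPM. 8-AG library 3 stood apart for 3 erythrocyte genes, at 2327 CPM against 529 and 131 CPM in the other 8-AG libraries and 157 to 220 CPM in aged RPE/choroid, and for 5 neutrophil genes, at 67.6 CPM against 3.48 and 8.77 CPM. The 3 lens genes found summed to 112, 23.8 and 47.2 CPM in the 8-AG and 13.3 to 22.6 CPM in the aged libraries. By the DEG rule the erythrocyte gene Alas2 (2.70 ± 0.99) and the lens genes Cryba1 (3.35 ± 0.97) and Cryaa (2.14 ± 0.79) were higher with 8-AG than in aged RPE/choroid, each with an adjusted p of 1. In 8-AG library 1, 10 of 39 members were the highest of the group, as were 41.7% of all genes. Among the 10 was Mx1 at 109 CPM against 23.8 and 36.7 CPM. Another 25 members were the lowest in 8-AG library 1, and the share of all genes lowest there was not counted. The effectors summed to 1041 CPM in it and to 445 and 652 CPM in the others, and the 7 other members to 560, 1447 and 1834 CPM. With a rod score, the log2 of summed rod CPM, as a covariate, 9 members were upregulated DEGs against aged RPE/choroid, against 2.59% of all genes in that fit, and the median was 0.10. 8-AG library 1 had the highest score. The number of DEGs was 1 without aged library 1, 0 without aged library 2 or 3, 2 without 8-AG library 1 or 3, and 10 without 8-AG library 2. The shares of all genes in these fits are not given here. The part of tissue content in the result was otherwise not tested.

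**Figure D5:**
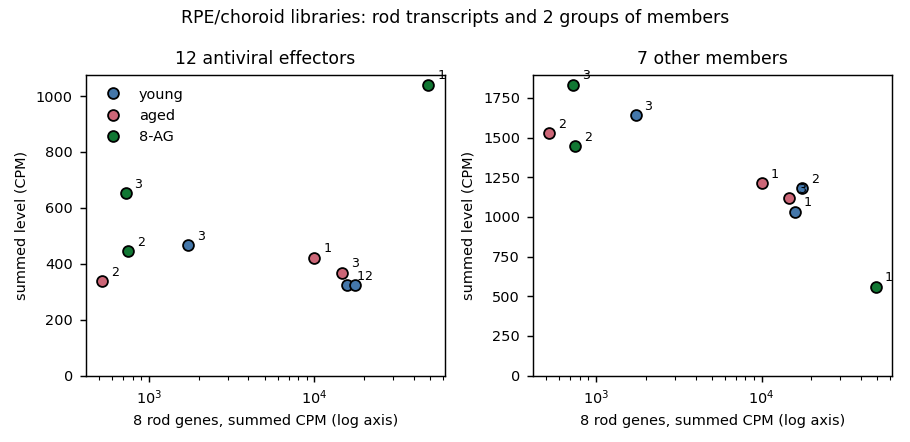
Summed CPM of the 12 antiviral effectors (left, y axis) and of the 7 other members (right) against the summed CPM of 8 rod genes (x axis, log scale) in the 9 RPE/choroid libraries, coloured by group. 8-AG library 1, at the far right with 48932 CPM of rod transcripts, is the highest for effectors at 1041 CPM and the lowest for the others at 560 CPM.

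Against young RPE/choroid, 25 members were higher in the 8-AG group and 14 lower, and the median change was 0.11 on the log2 scale. By the DEG rule 7 were upregulated, against 1.71% of all 16215 genes, and none downregulated, against 0.278%. With young libraries 1 and 2, which share a label number, summed into 1 library, no member was a DEG, against 0.513% of all genes higher in that fit. With the rod score as a covariate, 8 were higher, against 7.25% of all genes in that fit, and 5 lower, against 12.7%. In the fit without these changes the 7 were Oasl (1.78 ± 0.61), Rsad2 (1.75 ± 0.63), Zbp1 (1.47 ± 0.51), Samd9 (1.44 ± 0.52), Isg15 (1.11 ± 0.41), Oas1a (0.88 ± 0.35) and Mx2 (0.81 ± 0.32). The same 7 had an unadjusted P under 0.05 in edgeR, against 1.79% of all genes. No member passed an adjusted p of 0.05 in edgeR or DESeq2. Mx1 was at 109, 23.8 and 36.7 CPM in 8-AG against 13.3, 17 and 28.6 CPM in young RPE/choroid (1.53 ± 0.66, adjusted p = 1). Samd9, an antiviral factor found in the RPE/choroid table alone, was at 74.7, 20.5 and 38.9 CPM in 8-AG against 13.8, 13.6 and 22.4 CPM in young RPE/choroid. Zbp1 was at 17.1, 5.36 and 7.57 CPM against 3.53, 2.99 and 4.35 CPM. Of the members tested, Zbp1 and Ifit2 had groups that did not overlap, against 2.82% of all genes. For Mx1, Oasl, Rsad2, Samd9 and Zbp1, 8-AG library 1 was the highest of its group. The number of DEGs was 0 without young library 1 or 2, 2 without 8-AG library 1 and 3 without 8-AG library 3. It was highest, at 9, without 8-AG library 2. The shares of all genes in these fits are not given here. Set side by side, 26 of the 37 members measured in both tissues were lower with 8-AG in retina and higher with 8-AG in RPE/choroid, relative to aged rats. Another 8 were lower in both, 1 was higher in both, and 2 were higher in retina and lower in RPE/choroid. Of all genes tested in each comparison, 51% were lower with 8-AG in retina and 51.6% higher in RPE/choroid. The share of all genes with both was not counted. The difference of the treatment effect between tissues was not tested.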

How the data were processed

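RNA-seq libraries of retina and RPE/choroid, 3 per group, were used as the authors deposited them, 15 labelled polyA RNA and 3 total RNA. For retina the authors gave expected counts from RSEM for each gene, not normalized, and the 11.5% that were not whole were rounded here. For RPE/choroid the deposited values are raw counts of reads for each gene. The submitters' processing notes name Bowtie2 2.1.0, RSEM 1.2.15, edgeR and the Rnor_6.0 build without saying which step used each. Strand handling is not given in the sources used here. The authors' deposited TMM-normalized signal in retina and size-factor-scaled signal in RPE/choroid served to pair symbols with identifiers and, in retina, for ligand levels. Columns of fold changes and p-values from the authors' own comparisons were not used.

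Only the 6 libraries of a comparison entered its fit, made in edgeR 4.0.16 (R 4.3.3) with filterByExpr, TMM factors, glmQLFit with robust=TRUE and glmQLFTest. Adjusted p-values cover every gene of the fit, and an SE is the size of the log2 fold change over the root of F. Alternatives used DESeq2 1.42.0 and limma 3.58.1. The rod score, the log2 of the summed CPM of 8 rod genes, was added as a covariate after seeing the data. The fit was tested on simulated data. Part of the receptor and signalling list is not reported here. Figures used matplotlib 3.10.9. The members and lists were chosen with earlier results of these data known. Values per library are given for the 8 largest and 3 smallest changes with age in retina and the 3 largest changes and 3 smallest P of other comparisons, and other members are named by role. Promoter sequences are RefSeq windows on GRCr8 and no coordinate was converted. Shallower libraries limit the lowest genes most: levels under 1 CPM in retina rest on few counts.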

Additional observations from a re-analysis of the deposited data

Results flagged for a closer look

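The change with age differed between retina and RPE/choroid for 5 members by the test of the difference itself, the interaction of tissue and age in edgeR with adjusted p under 0.05. The retina change exceeded the RPE/choroid change by 4.37 on the log2 scale for Mx1, 4.00 for Oas1a, 3.67 for Rsad2, 2.41 for Oasl2 and 1.88 for Trim21. In each of the 5 the 3 aged retina libraries lay above the 3 young retina libraries. All 5 kept a difference of DEG size in each alternative that tested them, which for Mx1 and Oas1a leaves out the filter of at least 10 counts in every library, and the number at an adjusted p under 0.05 was 0 to 7 when single libraries were left out, 1 with limma voom and quality weights, 3 with that filter and 0 with the replicate number as a block. The RPE/choroid libraries were made by a method that enriches full-length transcripts and the retina libraries were not, so library method and tissue cannot be told apart here.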

How the results depend on the processing

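No called gene changed direction under an alternative, and the median log2 fold change in RPE/choroid crossed 0 when single libraries were left out (-0.12 to 0.16 with age, -0.07 to 0.33 for 8-AG against young). The counts with age in retina and of 8-AG against young retina stayed within 1.5 times under every alternative, with 28 to 33 and 25 to 29 members at an adjusted p under 0.05 when single libraries were left out. Members lower with 8-AG than in aged retina by the DEG rule numbered 3, with 6 by DESeq2 and 0 to 8 when single libraries were left out. In RPE/choroid, summing libraries that share a label number gave 1 member lower with age, 1 higher with 8-AG against aged and 0 against young. Leaving out single libraries gave 0 to 3 members higher and 0 to 2 lower with age. It gave 0 to 10 higher and 0 to 1 lower for 8-AG against aged, and 0 to 9 higher for 8-AG against young. Shares of all genes in these fits, and in the fit with a replicate block below, are not given here. The rod score covariate gave 5 members lower for 8-AG against young RPE/choroid, close to the share of all genes in that fit given above. The labels do not say whether retina and RPE/choroid libraries came from the same rats. Within a tissue, replicate numbers do not mark shared animals across groups, and deviations of libraries with the same number correlated between -0.577 and 0.648. With the number as a replicate block, 3 members were higher with 8-AG than in aged and 3 than in young RPE/choroid, and 0 had a tissue difference at an adjusted p under 0.05. That count of 5 was 1 with limma voom and quality weights, 3 with at least 10 counts in every library, where 31 members were tested, and 0 to 7 without single libraries. The mean of log2(CPM + 0.5) over members gave 1.53 for aged against young retina and 1.25 for 8-AG against young retina. The difference between group means of the log2 summed level was 1.13 and 0.94. Apart from the different weight of low genes in a mean of logs and the fewer genes or libraries of some alternatives, the cause was not tested.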
